A study of Mus musculus with 2 samples.

Results

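The transcripts described here belong to gene families with regulators of the translation, decay and silencing of mRNA. They were measured by RNA immunoprecipitation sequencing (RIP-seq) of FMRP in mouse testis. The members were chosen by gene symbol, as the rows whose names belong to families such as *Ddx*, *Eif*, *Cnot*, *Tnrc6*, *Ago*, *Larp*, *Zc3h* and *Cpeb*, together with *Fmr1*, *Fxr1* and *Fxr2*, and 139 of the 4788 listed genes were taken. Of these, 40 were given no role in cytoplasmic mRNA control here. They are 11 of ribosome biogenesis, 6 of splicing and 14 of nuclear RNA decay, processing or export. The others are 1 of innate sensing and 8 with no role stated. A cytoplasmic role of those 8 was not excluded. In RIP-seq an antibody pulls down a protein with the RNA it holds, and that RNA is sequenced beside RNA from the starting lysate. The material was testis of adult wild-type males, with 1 input library kept before precipitation and 1 library from the anti-FMRP precipitation (FMRP RIP), with 30849870 and 36506932 reads in all, as estimated from the steps between low values. No IgG library was analysed here, no difference had a replicate check, and how many animals were pooled is not given in the sources used here. The study used the assay to ask which mRNAs the KIF6-FMRP complex could carry in germ cells.

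FMRP, the product of *Fmr1*, is an RNA-binding protein that associates with polyribosomes and represses translation. It works beside its paralogs FXR1 and FXR2 in mRNA-protein particles. A cytoplasmic mRNA is read by initiation factors at its cap, covered at its tail by poly(A)-binding protein, shortened by the PAN2-PAN3 and CCR4-NOT deadenylases, decapped, and degraded by XRN1 or the exosome, while Argonaute and TNRC6 proteins bring microRNA-guided repression to the same machinery. In spermatogenesis such control is prominent, because transcription stops before the spermatid has finished its differentiation and stored mRNAs are translated later.

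Only genes called higher after precipitation by the authors are in the table, so the direction of every member was fixed by that selection and supports nothing. What can be described is how large the ratio was, and which symbols were listed. Coordinates are those of the table, on GRCm38. Values are in CPM, read counts of a gene scaled to a common library total. They are not divided by transcript length, so levels of different genes are not ranked here. The log2 ratio was taken after adding 1 CPM to both values, which understates the difference of low genes. Ratios given without that addition carry an exact Clopper-Pearson 95% interval, which covers counting error only. Whole-testis values cannot tell how many cells carry a transcript from how much each cell holds.

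The mRNA regulators stood above the listed genes as a whole in the size of the ratio, but over a wide range. Their median log2 ratio was 1.62, with quartiles of 1.13 and 2.29, beside a median of 1.35 and quartiles of 0.92 and 2.0 for all listed genes. A log2 ratio above 1 was found for 109 of the 139 members (78.4%), against 70.1% of all listed genes. Above 2 there were 49 members (35.3%, against 25.0%), and above 3 there were 13 (9.35%, against 6.62%). Without the added CPM, 57 members (41.0%) had at least 4 times the input value, against 34.2% of the listed genes above 0 in the input. No test of these shares was possible with 1 library per group, and genes are not replicates. Together the members took up 0.56% of all reads before and 2.42% after precipitation, a ratio of 4.35, while the shares for all listed genes were 14.2% and 55.2%. A fold change of at least 1.5 was part of the authors' own selection, so reaching it supports nothing. Without the added CPM, the lowest ratio of any listed gene above 0 in the input was 1.59. With the added CPM, 138 members and 97.3% of the listed genes still reached 1.5-fold. *Fmr1*, with a ratio of 1.61 before that addition, was the member that did not.

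**Figure D1:**
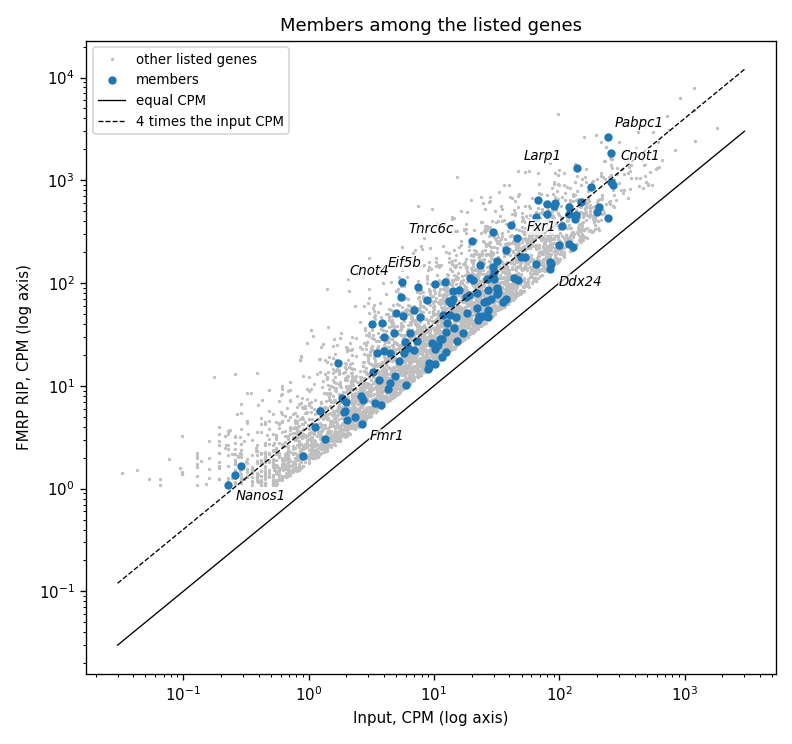
CPM in the input (horizontal, log axis) and in the FMRP RIP (vertical, log axis) of the 139 members in blue and the other listed genes in grey; 13 other listed genes at 0 in the input have no place on the axis. The members lie within the cloud, from *Fmr1* and *Ddx24* near its lower edge to *Cnot4* at 18.3 times the input. Other listed genes reach 76.6 times the input.

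With the added CPM, the difference from all listed genes was seen at each input level except the lowest. For members from 1 to under 10 CPM in the input, the median log2 ratio was 1.59 (47 genes), against 1.29 for the listed genes at that level. Between 10 and 100 CPM it was 1.62 (70 genes), against 1.54, and from 100 CPM upward 1.76 (18 genes), against 1.56. Under 1 CPM there were 4 members, with a median of 0.84 against 1.0. Without the added CPM their median ratio was 5.06, against 4.13 for the listed genes at that level. The exception thus depends on the added CPM and rests on few genes. With the added CPM the gap was widest from 1 to under 10 CPM.

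By role, 14 groups were described, and 10 of them had a median above that of all listed genes. The CCCH and CCHC zinc finger and uridylyl transferase genes had the highest median log2 ratio, 2.38, followed by nonsense-mediated decay (2.36), microRNA silencing (2.33), poly(A)-binding proteins (2.32), mRNP granule and localization proteins (2.25), La-related proteins (2.16) and deadenylation (2.09). Sequence-specific regulators lay between, at 1.84. Lower medians belonged to the FMRP family (1.55), decapping and 5′ decay (1.52), m6A readers (1.34), exosome and ribosome quality control (1.34), translation initiation (1.28) and RNA helicases (1.08). Some medians rest on few genes, with 4 poly(A)-binding protein genes, 3 of exosome and ribosome quality control, and 2 each of the FMRP family and m6A readers. The last 2 medians lie between members far apart, at 0.53 and 2.57 for the FMRP family and at 0.69 and 2.0 for m6A readers. The groups overlapped throughout, and no order among neighbouring medians was tested. The order also changed with the pseudocount. With 5 CPM the poly(A)-binding proteins had the highest median, 2.28, and without a pseudocount microRNA silencing did, 2.57.

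**Figure D2:**
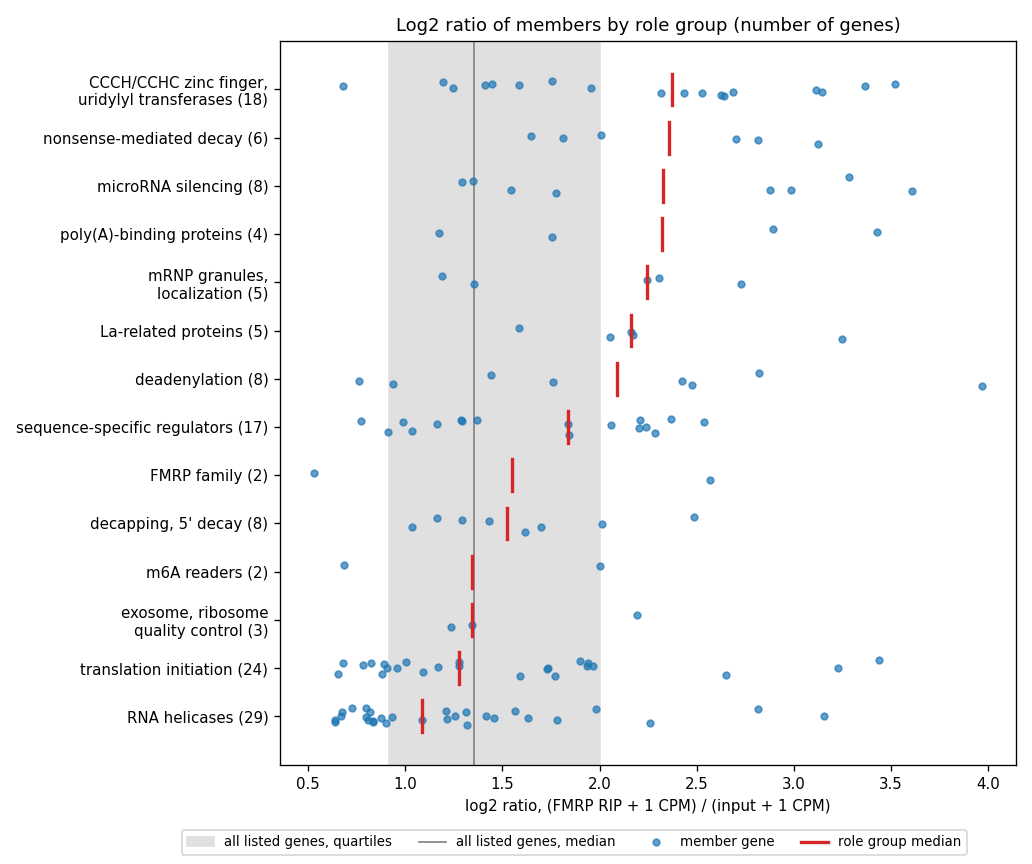
Log2 ratio of each member (blue) by role group, with the group median in red and, in grey, the quartiles and median of all listed genes. Within most groups the members spread over more than 1 log2 unit, and 7 group medians lie to the right of the grey band.

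The bait's own transcript and that of its paralog stood apart. *Fmr1* (chromosome X from 68678541 to 68717963) had 2.66 CPM before and 4.27 CPM after precipitation, a ratio of 1.61 (interval 1.22 to 2.13), from 82 and 156 reads. With the added 1 CPM its log2 ratio of 0.53 was the lowest of all 139 members. That last place depends on the addition. With 5 CPM *Nanos1* (0.22) and *Zc3h12b* (0.26) lay below *Fmr1* (0.28). Without any addition *Ddx24* (0.680) lay just below *Fmr1* (0.685). *Fxr1* (chromosome 3 from 34019943 to 34070322) had 45.8 and 277 CPM, a ratio of 6.05 (interval 5.72 to 6.40), and ranked 605 of the 4788 listed genes. The 2 intervals did not overlap. The *Fxr1* span shares 25.9% of its length with *Dnajc19* in the reference, and without a stated strand setting reads in that stretch cannot be told apart. *Fxr2* was not among the listed genes and was not analysed here.

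MicroRNA silencing was the group whose symbols were all listed. For it the rule takes only *Tnrc6*, *Ago* and *Dicer1* symbols, and other genes of the pathway were not counted. The members were chosen with earlier results of these data known, so this full share supports nothing. All 8 reference genes matching the rule were present, 3 encoding TNRC6 (GW182) scaffolds, which link Argonaute to the deadenylases, 4 encoding Argonautes, which hold the microRNA, and *Dicer1*, which cuts microRNA precursors. *Tnrc6c* stood at 19.98 CPM in input RNA against 255 CPM in the RIP, a ratio of 12.8 (interval 11.8 to 13.9). *Tnrc6a* had 3.21 and 40.0 CPM, a ratio of 12.5 (interval 10.2 to 15.4). *Tnrc6b* had 12.2 and 103 CPM, a ratio of 8.48 (interval 7.62 to 9.45), below both paralogs with no overlap of the intervals. *Dicer1* (chromosome 12 from 104687742 to 104751952), with 5.66 and 47.9 CPM, had a nearly equal ratio of 8.47 (interval 7.23 to 9.93).

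The Argonaute transcripts had lower ratios than the scaffolds. *Ago1* measured 3.27 CPM in input RNA and 13.6 CPM after precipitation, a ratio of 4.16 (interval 3.36 to 5.21). *Ago3* had 5.28 and 17.3 CPM (ratio 3.28, interval 2.76 to 3.92), and *Ago4* 12.5 and 33.4 CPM (ratio 2.67, interval 2.38 to 3.0). For *Ago2*, which encodes the Argonaute with slicer activity, 26.7 and 66.9 CPM gave 2.50 (interval 2.31 to 2.71). The upper limit of each Argonaute lay below the lower limit of each TNRC6 transcript and of *Dicer1*. Of the 6 Argonaute pairs, 3 had intervals that did not overlap. These intervals cover counting error only, and the share of separate pairs over all listed genes was not computed.

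Deadenylase subunits covered the widest range of any group. *Cnot4* (chromosome 6 from 35022065 to 35133724), which encodes the RING ubiquitin ligase named with the CCR4-NOT complex, had the highest ratio of all members. It had 5.61 CPM before and 103 CPM after precipitation, a ratio of 18.3 (interval 15.7 to 21.4) and rank 72 of the listed genes. It was the only member among the first 100 of the 4788 listed genes, while 20 of the 139 members were among the first 500. *Cnot1* (chromosome 8 from 95719451 to 95807464), the scaffold of the complex, had 258 and 1830 CPM, a ratio of 7.10 (interval 6.93 to 7.26), and *Cnot2*, which binds it, 14.3 and 84.0 CPM, a ratio of 5.89 (interval 5.33 to 6.52). *Cnot3*, a partner of CNOT2, had 7.36 and 27.3 CPM (ratio 3.71), *Cnot6*, a catalytic nuclease, 18.4 and 51.6 CPM (ratio 2.81), and *Cnot10* 27.1 and 46.5 CPM (ratio 1.72). In all 15 pairs of the 6 listed *Cnot* genes the intervals were separate. Separate intervals were common elsewhere too, as in 72 of 120 *Ddx* pairs and 39 of 55 *Dhx* pairs. The share over all listed genes was not computed. The other catalytic genes *Cnot6l*, *Cnot7* and *Cnot8*, as well as *Cnot9* and *Cnot11*, were not listed.

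The subunits of the other deadenylase also differed. *Pan3*, which encodes the adaptor that binds poly(A)-binding protein, stood at 37.9 CPM in input RNA against 208 CPM in the RIP, a ratio of 5.48 (interval 5.16 to 5.84). *Pan2*, which encodes the nuclease, had 24.8 and 48.3 CPM, a ratio of 1.95 (interval 1.79 to 2.12).

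Transcripts of poly(A)-binding proteins, which coat the mRNA tail and connect it to the cap complex, were listed for 4 of 9 genes. *Pabpc1* (chromosome 15 from 36595661 to 36609668) measured 243 CPM in input RNA and 2624 CPM after precipitation, a ratio of 10.8 (interval 10.6 to 11.1). *Pabpc6* had 79.3 and 594 CPM (ratio 7.50, interval 7.19 to 7.82), and *Pabpc2* 268 and 906 CPM (ratio 3.38, interval 3.30 to 3.46). *Pabpc4* had 1.91 and 5.56 CPM (ratio 2.91, interval 2.17 to 3.95), which could not be set apart from *Pabpc2* at this depth. *Pabpc2* and *Pabpc6* have short spans, 2.59 and 3.22 kb, against 14.0 kb for *Pabpc1*. The reads of *Pabpc1* were not whole (7492.74 in the input), so part of them was assigned in fractions, and values of such similar genes are uncertain.

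La-related proteins bind mRNA ends, and LARP1 in particular binds the cap of mRNAs with a 5′ terminal oligopyrimidine tract. *Larp1* (chromosome 11 from 58009064 to 58062034) had 138 CPM before and 1321 CPM after precipitation, a ratio of 9.57 (interval 9.27 to 9.87). Its paralog *Larp1b* had 30.02 and 128 CPM, a ratio of 4.26 (interval 3.97 to 4.58). *Larp4* (6.47 and 32.4 CPM) and *Larp4b* (13.6 and 64.6 CPM), which act with poly(A)-binding protein, had ratios of 5.01 and 4.76 whose intervals overlapped. *Larp7*, which encodes the partner of the nuclear 7SK RNA, had 14.9 and 46.6 CPM and the lowest ratio of the 5, 3.13 (interval 2.82 to 3.48). *Larp6* was not listed.

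**Figure D3:**
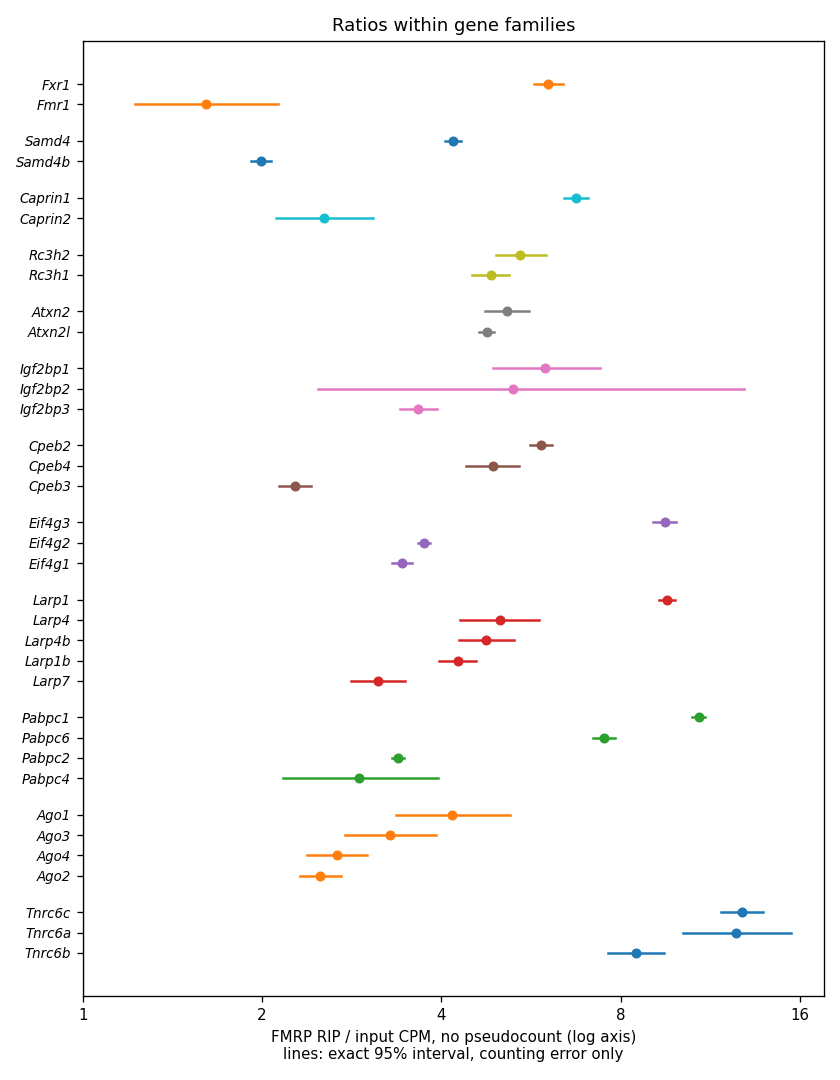
Ratio of FMRP RIP to input CPM, without an added CPM, of the members of 12 gene families (log axis); lines give the exact 95% interval for counting error. The *Tnrc6* genes lie at 8.48 or more and the *Ago* genes at 4.16 or less, while *Atxn2* and *Atxn2l* overlap.

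Translation initiation factors had ratios close to those of the listed genes as a whole. Of 24 listed genes, 16 had a log2 ratio above 1 (66.7%, beside 70.1% of all listed genes) and 3 were above 2 (12.5%, beside 25.0%), a difference that was not tested. The highest was *Eif5b* (chromosome 1 from 37998010 to 38055579), which encodes the GTPase of ribosomal subunit joining, with 7.46 CPM before and 90.6 CPM after precipitation and a ratio of 12.2 (interval 10.6 to 14.0). Among the eIF4G scaffolds, which hold the cap complex together, *Eif4g3* had 67.5 and 639 CPM, a ratio of 9.48 (interval 9.06 to 9.91). *Eif4g2* had 260 and 970 CPM (ratio 3.74, interval 3.65 to 3.83) and *Eif4g1* 104 and 358 CPM (ratio 3.44, interval 3.31 to 3.57). The 3 intervals were separate, with *Eif4g3* above both paralogs.

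Of the eIF3 complex, which brings mRNA to the small ribosomal subunit, 6 of 14 reference genes were listed. *Eif3a* stood at 23.2 CPM in input RNA against 151 CPM in the RIP, a ratio of 6.50 (interval 6.02 to 7.04). The ratio was 3.35 for *Eif3c* (136 and 456 CPM), 2.43 for *Eif3b* (201 and 490 CPM) and 1.86 for *Eif3e* (37.7 and 70.2 CPM). *Eif3j1* (2.70 and 7.31 CPM, ratio 2.71) and *Eif3j2* (1.35 and 3.05 CPM, ratio 2.25) both held fractional reads, so reads of the pair may be shared. The subunits *Eif3d*, *Eif3f*, *Eif3g*, *Eif3h*, *Eif3i*, *Eif3k*, *Eif3l* and *Eif3m* were not listed.

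The listed subunits of eIF2, which delivers the initiator tRNA and is switched off by phosphorylation, lay below the initiation median log2 ratio of 1.28. *Eif2s1*, the phosphorylated subunit, measured 26.9 CPM in input RNA and 54.9 CPM after precipitation (ratio 2.04, interval 1.88 to 2.22), and *Eif2s2* 11.6 and 19.1 CPM (ratio 1.65, interval 1.45 to 1.88). These intervals overlapped slightly. *Eif2a*, a separate initiation factor, had 3.80 and 6.55 CPM and a log2 ratio of 0.65, the lowest of the initiation group. Of the kinases that phosphorylate eIF2, *Eif2ak2* (PKR) had a ratio of 4.09 from 1.85 and 7.56 CPM, *Eif2ak1* (HRI) 2.52 from 14.4 and 36.3 CPM, and *Eif2ak4* (GCN2) 2.39 from 4.44 and 10.6 CPM. None of the 5 eIF2B subunits was listed.

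The remaining initiation genes included activators and repressors at the cap. *Eif5*, the GTPase activator of eIF2, had 119.5 CPM before and 469 CPM after precipitation (ratio 3.93), and *Eif4b*, a cofactor of the cap helicase, 53.0 and 178 CPM (ratio 3.36). The repressors *Gigyf2* (29.3 and 115.5 CPM, ratio 3.94) and *Eif4enif1*, which encodes 4E-T (19.0 and 75.8 CPM, ratio 3.98), had similar ratios. Lower ratios were found for the cap-binding *Eif4e2* (85.9 and 152 CPM, ratio 1.78), *Eif4ebp2* (17.1 and 32.5 CPM, ratio 1.90), *Gigyf1* (2.01 and 4.63 CPM, ratio 2.30) and *Eif5a2* (4.28 and 9.23 CPM, ratio 2.16). GIGYF2 and eIF4E2 form 1 complex, and the intervals of their transcripts were separate, at 3.67 to 4.24 and 1.70 to 1.86.

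All 6 listed genes of nonsense-mediated decay, which removes mRNAs with premature stop codons, had a log2 ratio of at least 1.65. A log2 ratio above 1 was also found for 70.1% of all listed genes. Above 2 there were 4 of the 6 (66.7%, beside 25.0%). *Upf2*, whose product bridges UPF1 to the exon junction complex, stood at 8.82 CPM in input RNA against 68.1 CPM in the RIP (ratio 7.72, interval 6.81 to 8.79), and the kinase gene *Smg1* 92.3 and 607 CPM (ratio 6.58, interval 6.33 to 6.84). The endonuclease gene *Smg6* followed with 26.5 and 110 CPM (ratio 4.13), then *Upf3a* with 22.2 and 80.3 CPM (ratio 3.62) and *Smg5* with 133 and 420 CPM (ratio 3.15). *Upf1*, *Upf3b*, *Smg8* and *Smg9* were not listed.

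Decapping and 5′ decay had 8 listed genes, all above a log2 ratio of 1, as were 70.1% of all listed genes, and 2 above 2 (25%, beside 25.0%). *Dcp1b* measured 19.4 CPM in input RNA and 113 CPM after precipitation (ratio 5.84, interval 5.36 to 6.37), and its paralog *Dcp1a* 11.1 and 28.7 CPM (ratio 2.58, interval 2.28 to 2.93). Both lie inside or across calcium channel genes in the reference, as *Dcp1b* shares 47.7% of its span with *Cacna1c* and *Dcp1a* 24.5% with *Cacna1d*. *Dcp2*, the catalytic subunit, had 4.47 and 21.1 CPM (ratio 4.71). The cytoplasmic exonuclease gene *Xrn1* had 5.80 and 21.1 CPM (ratio 3.63, interval 3.08 to 4.30), and its nuclear counterpart *Xrn2* 22.7 and 47.6 CPM (ratio 2.10, interval 1.92 to 2.29). The decapping cofactors *Patl1* (1.98 and 7.04 CPM, ratio 3.56) and *Lsm14a* (10.7 and 25.1 CPM, ratio 2.35) and the gene *Lsm12* (12.7 and 40.9 CPM, ratio 3.23) completed the group. None of the 8 genes *Lsm1* to *Lsm8*, which form the LSM rings, was listed, nor were *Edc3* and *Edc4*.

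In the 3′ decay and quality control group, *Gcn1*, which senses collided ribosomes, had 119.9 CPM before and 552 CPM after precipitation (ratio 4.60, interval 4.44 to 4.76). *Ltn1*, the ubiquitin ligase of stalled nascent chains, had 100.1 and 237 CPM (ratio 2.37, interval 2.27 to 2.47). *Exosc10*, the nuclear exosome nuclease, had 43.6 and 112 CPM (ratio 2.57). It was the only listed gene of the 10 *Exosc* genes, and *Skiv2l* was also not listed.

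Sequence-specific regulators included 17 listed genes, 14 of them above a log2 ratio of 1 (82.4%, beside 70.1% of all listed genes). CPEB proteins bind U-rich elements near the tail and control poly(A) length. *Cpeb2* (chromosome 5 from 43233170 to 43289724) stood at 79.9 CPM in input RNA against 469 CPM in the RIP (ratio 5.87, interval 5.63 to 6.12), *Cpeb4* 14.3 and 69.5 CPM (ratio 4.88, interval 4.41 to 5.41), and *Cpeb3* 47.0 and 107 CPM (ratio 2.27, interval 2.14 to 2.41). These 3 intervals did not overlap, and *Cpeb1* was not listed. The Roquin genes *Rc3h2* (15.8 and 85.5 CPM, ratio 5.43) and *Rc3h1* (29.5 and 143 CPM, ratio 4.84), whose products bind stem-loops in short-lived mRNAs, had overlapping intervals. For the Smaug genes, *Samd4* had 148 and 620 CPM (ratio 4.18, interval 4.05 to 4.32) and *Samd4b* 120.4 and 240.1 CPM (ratio 1.99, interval 1.92 to 2.07). The *Samd4b* span overlaps 7 other protein-coding genes in the reference, the largest overlap covering 19.8% of it.

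Pumilio proteins are repressors that recruit CCR4-NOT. *Pum2* measured 31.7 CPM in input RNA and 78.8 CPM after precipitation (ratio 2.49, interval 2.31 to 2.67). *Pum3*, whose product acts in ribosome biogenesis, had 2.63 and 7.89 CPM (ratio 3.0, interval 2.34 to 3.89), and the intervals overlapped. Among IGF2BP genes, *Igf2bp1* (3.50 and 20.9 CPM, ratio 5.97) exceeded *Igf2bp3* (30.2 and 110 CPM, ratio 3.65), although *Igf2bp3* shares 41.6% of its span with *Malsu1*. The SECIS-binding genes of selenoprotein translation, *Secisbp2l* (4.02 and 22.1 CPM, ratio 5.49) and *Secisbp2* (9.59 and 26.4 CPM, ratio 2.75), also had separate intervals.

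A few regulators were near the limit of depth in the input. *Nanos1*, a germline repressor, rested on 7 input reads (0.23 and 1.10 CPM, ratio 4.83, interval 2.14 to 12.8), *Igf2bp2* on 8 (0.26 and 1.37 CPM, ratio 5.28, interval 2.48 to 12.9) and *Celf4* on 9 (0.29 and 1.65 CPM, ratio 5.64, interval 2.78 to 12.9). With the added CPM their log2 ratios were only 0.77, 0.91 and 1.03. Their place among the members thus depends on that choice, and no member was at or under 3 reads in the input.

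Transcripts of mRNP granule and localization proteins were listed for 5 of 8 genes. *Caprin1* (chromosome 2 from 103762941 to 103797649), whose product is a stress granule component known to bind FMRP, had 64.9 CPM before and 437 CPM after precipitation (ratio 6.72, interval 6.42 to 7.05), and *Caprin2* 4.93 and 12.5 CPM (ratio 2.54, interval 2.11 to 3.07). *Atxn2* (20.7 and 106 CPM, ratio 5.14) and *Atxn2l* (179.9 and 857 CPM, ratio 4.77), which encode granule proteins that bind poly(A)-binding protein, had overlapping intervals. *Stau1*, whose product binds double-stranded RNA in transported mRNAs, had 25.3 and 66.2 CPM (ratio 2.62). The granule genes *G3bp1* and *G3bp2* and the paralog *Stau2* were not listed.

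Readers of m6A, a methyl mark on mRNA, were represented by *Ythdc1*, which encodes the nuclear reader (5.87 and 26.5 CPM, ratio 4.52), and *Ythdf3*, a cytoplasmic reader (9.14 and 15.3 CPM, ratio 1.68). *Ythdf1*, *Ythdf2* and *Ythdc2* were not listed.

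The zinc finger and uridylyl transferase genes had 17 of 18 members above a log2 ratio of 1 (94.4%, beside 70.1% of all listed genes) and 10 above 2 (55.6%, beside 25.0%). *Zcchc14* (chromosome 8 from 121598703 to 121652901) stood at 5.51 CPM in input RNA against 73.8 CPM in the RIP (ratio 13.4, interval 11.5 to 15.7), and *Zcchc2* 29.5 and 313 CPM (ratio 10.6, interval 9.93 to 11.4). Both encode CCHC zinc finger proteins and were the highest of the 5 listed *Zcchc* genes. The terminal uridylyl transferases, which add U to mRNA tails and microRNA precursors, were *Tut4* (4.96 and 51.7 CPM, ratio 10.4, interval 8.84 to 12.4) and *Tut7* (7.78 and 46.5 CPM, ratio 5.97, interval 5.21 to 6.86). *Zcchc7* (4.80 and 32.4 CPM, ratio 6.75) and *Zcchc8* (18.02 and 72.7 CPM, ratio 4.03) encode partners of the nuclear exosome.

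Of 19 reference genes of the CCCH family *Zc3h*, 11 were listed. *Zc3h11a*, a factor of mRNA export, measured 3.87 CPM in input RNA and 41.3 CPM after precipitation (ratio 10.7, interval 8.87 to 13.0), with 12.1% of its span shared with *Zbed6*. *Zc3h6* (1.72 and 16.5 CPM, ratio 9.61), *Zc3h15* (4.02 and 29.9 CPM, ratio 7.45), *Zc3h14*, a nuclear poly(A)-binding protein gene (90.1 and 567 CPM, ratio 6.29), and *Zc3h7b* (32.1 and 164 CPM, ratio 5.10) followed. At the low end *Zc3h12b* had 0.91 and 2.07 CPM (ratio 2.27, interval 1.45 to 3.63). *Zc3h12b* and *Fmr1* were the only members on the X chromosome.

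RNA helicases, which unwind or remodel RNA and RNA-protein complexes, were the largest group and the one with the lowest median. Of 29 listed genes, 15 had a log2 ratio above 1 (51.7%, beside 70.1% of all listed genes) and 3 were above 2 (10.3%, beside 25.0%). Among helicases with a cytoplasmic role in translation or decay, *Dhx29*, which helps ribosomes scan structured leaders, had 6.94 CPM before and 54.8 CPM after precipitation (ratio 7.91, interval 6.86 to 9.15). *Helz* had 27.1 and 86.1 CPM (ratio 3.17), *Dhx36*, which resolves G-quadruplexes, 6.97 and 22.6 CPM (ratio 3.24), and *Ddx6*, the helicase of decapping and repression, 32.6 and 82.5 CPM (ratio 2.53). *Dhx30* (208 and 555 CPM, ratio 2.67), *Dhx34* (22.2 and 56.7 CPM, ratio 2.55) and *Ddx19b* (128 and 226 CPM, ratio 1.76) made up the 7, whose median log2 ratio was 1.41.

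Helicases of other steps were mostly lower. The 11 members with a role in ribosome biogenesis, all but *Pum3* being helicases, had a median log2 ratio of 0.80. They ranged from 0.64 for *Ddx52* to 1.98 for *Ddx21*, and 5 of the 11 were above 1, beside 70.1% of all listed genes. For the 6 splicing helicases the median was 1.19. They ranged from *Ddx42* (15.2 and 27.3 CPM, ratio 1.79) to *Ddx46* (chromosome 13 from 55635027 to 55681256), which with 10.2 and 98.7 CPM had the highest ratio of any helicase, 9.67 (interval 8.61 to 10.9). *Ddx5* had 244 and 432 CPM (ratio 1.77), and *Ddx24* 84.9 and 136 CPM, the lowest ratio of all members at 1.60 (interval 1.53 to 1.68). Near that edge lay *Dhx33* (9.04 and 14.6 CPM, ratio 1.62), *Ddx52* (10.1 and 16.4 CPM, ratio 1.61) and *Ddx31* (6.03 and 10.2 CPM, ratio 1.69). *Mov10* and the germ cell helicase genes *Ddx4* and *Ddx25* were not listed.

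Many of the symbols were not in the table. The rule matches 279 protein-coding genes in the RefSeq annotation of GRCm38.p6. Of these, 139 were listed (49.8%), against 21.3% of all protein-coding reference genes, expressed in testis or not. The symbols were chosen with earlier results of these data known, so the shares are descriptions and not a test. The share ran from 8 of 8 for microRNA silencing and 5 of 6 for La-related proteins to 8 of 28 for decapping and 5′ decay and 3 of 13 for the exosome and quality control. In the decapping group 5 of the 28 symbols, of the *Dcpp* and *Lsmem* genes, share only their first letters with it. The listed genes had a median reference span of 41.9 kb, against 13.3 kb for the 140 that were not listed. Levels of the latter were not analysed here, so whether expression or span set their absence was not tested.

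**Figure D4:**
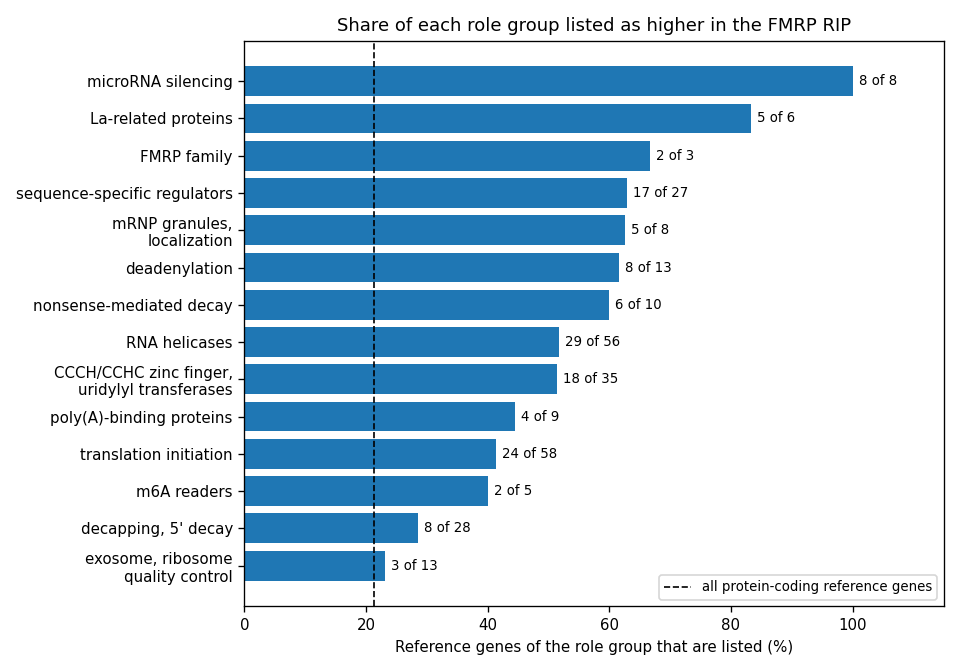
Share (%) of the protein-coding reference genes of each role group that were listed as higher in the FMRP RIP, with the number of genes beside each bar; the dashed line marks 21.3% for all protein-coding reference genes. Every bar reaches past the line, the shortest bar being exosome and ribosome quality control at 3 of 13. Because the symbols were chosen with earlier results of these data known, this contrast is not a test.

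Within the members, longer genes tended to have higher ratios. Spearman's rho between span and log2 ratio was 0.33 across the 139 genes, which share the same pair of libraries and are not independent replicates, and 0.16 across all listed genes. The 46 shortest members had a median span of 19.9 kb and a median log2 ratio of 1.30, the middle 46 had 41.4 kb and 1.51, and the 47 longest had 96.4 kb and 2.01. *Pabpc1* (14.0 kb) and *Pabpc6* (3.22 kb) were short genes with high log2 ratios, 3.43 and 2.89. Among the members the relation with the input CPM was weaker, with a rho of 0.16. Across all listed genes it was stronger than that with span, with a rho of 0.25 against 0.16. Span counts introns and is not the length of the mRNA, which was not analysed here.

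**Figure D5:**
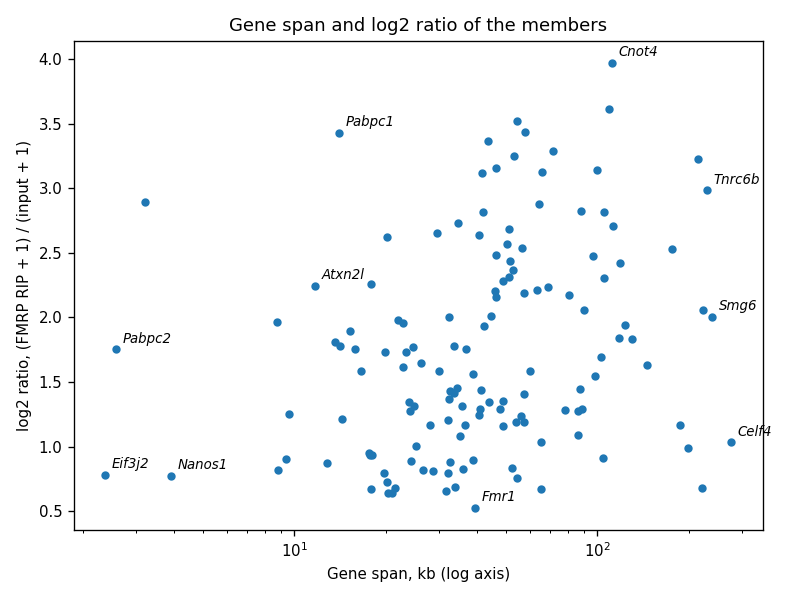
Gene span in kb (horizontal, log axis) and log2 ratio (vertical) of the 139 members, each point a gene. The points widen upward with span, and *Pabpc1* at 14.0 kb and *Celf4* at 276.5 kb lie off the trend.

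Neighbouring gene groups give the scale. Other regulators of translation and decay that the symbol rule did not take, such as the *Ybx*, *Prrc2*, *Elavl* and *Tob* genes, were listed for 39 of 77 genes (50.6%), with a median log2 ratio of 1.48 and 24 genes above 1 (61.5%, beside 70.1% of all listed genes). *Ubap2* (24.5 and 597 CPM, ratio 24.3), *Prrc2c* (7.46 and 105 CPM, ratio 14.1), *Ybx1* (98.9 and 893 CPM, ratio 9.03) and *Hdlbp*, which encodes the multi-KH-domain protein vigilin (237 and 2108 CPM, ratio 8.88), led that list, and the testis mRNA-storage gene *Ybx2* was near its end (550 and 891 CPM, ratio 1.62). Splicing and 3′ end processing factors were listed for 44 of 154 genes (28.6%), with a median of 1.28. Of 91 ribosomal protein genes only *Rpl4* was listed (89.3 and 149 CPM, ratio 1.66), whereas the elongation factor gene *Eef2* had 1192 and 4829 CPM (ratio 4.05). The regulators' median of 1.62 was above those of the other regulators and of the splicing factors, a difference that was not tested.

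Reads were whole in both libraries for 86 of the 139 members and fractional in at least 1 library for 53, within a tolerance of 0.005 read. The median log2 ratio was 1.59 for the first and 1.70 for the second. In the reference, 30 members overlap another protein-coding gene, 9 of them over more than 10% of their span. Of 31 marker genes of testis cell types, 3 were listed, the spermatogonial *Gfra1*, the spermatocyte *Sycp1* and the spermatid *Catsper1*, so the tissue label could not be checked on the others.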

How the data were processed

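The data were FMRP RIP-seq of mouse testis, 1 library of each kind. The authors deposited CPM values per gene for 4788 protein-coding genes that they called higher in the FMRP RIP. The submitters' processing notes name STAR and GRCm38 (mm10); the counting tool and strand setting are not given in the sources used here. The table also holds the authors' edgeR fold changes, p-values, adjusted p-values and calls, which were not used.

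Library totals were found from the step of the values, of which 78.4% (input) and 78.8% (FMRP RIP) above 0 were whole reads, so no count test was run. A single read was worth 0.0324 and 0.0274 CPM, and a floor of 3 reads lay at 0.0972 and 0.0822 CPM. The log2 ratio used a pseudocount of 1 CPM. Clopper-Pearson 95% intervals rest on reads rounded to whole numbers. Each read was counted as a separate molecule, so copies made by PCR, if present, make the intervals too narrow. Role groups, families and lists were set by symbol, and the members and lists were chosen with earlier results of these data known. Named were the FMRP family, the extremes of each role group, the 10 highest and 5 lowest members, families with several listed paralogs and members low in the input; others were added after their values were seen. All 139 symbols matched RefSeq of GRCm38.p6, which also gave spans and overlaps. No transcript or protein sequences were used here. The functions were tested on simulated data. Alternatives were pseudocounts of 5, 0.1 and no CPM, scaling to reads outside the listed genes, and minima of 1 CPM and of 10 input reads. Unique symbols, and leaving out members given no cytoplasmic role, were also tried. Intervals came from scipy 1.17.1, tables from pandas 2.3.3 with numpy 2.4.6, and plots from matplotlib 3.10.9, under Python 3.11.15. Some items are not reported here.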

Additional observations from a re-analysis of the deposited data

How the results depend on the processing

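The count of members with a log2 ratio above 1 was 109, and was within 1.5 times of that in each alternative. It was 93 (66.9%, against 51.7% of all listed genes) with 5 CPM, 116 (83.5%, against 79.97%) with 0.1 CPM, 117 (84.2%, against 81.3%) without a pseudocount, and all 139 (against 99.96%) when libraries were scaled on reads of unlisted genes. Without the 40 members given no cytoplasmic role it was 83 of 99 (83.8%, against 70.1% of all listed genes). The median log2 ratio of the members was 1.35 with 5 CPM (all listed genes 1.04), 1.78 with 0.1 CPM (1.58), 1.80 without a pseudocount (1.61), 2.54 with that scaling (2.24) and 1.77 without those 40 members. It stayed above the median of all listed genes in each. Scaling multiplied every FMRP RIP value by 1.92, so ratios are relative to the library totals. The fit without a pseudocount was chosen after seeing the data.

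The role group medians moved as follows. With 5 CPM they were 1.37 for the FMRP family, 0.87 for RNA helicases, 1.0 for translation initiation, 1.80 for deadenylation, 1.17 for decapping, 2.13 for nonsense-mediated decay, 1.75 for microRNA silencing, 1.91 for La-related proteins, 1.03 for m6A readers, 1.59 for sequence-specific regulators and 1.84 for the zinc finger group. Poly(A)-binding proteins then had the highest median, 2.28, while granules had 2.12 and exosome and quality control 1.27. With 0.1 CPM, decapping had 1.73, microRNA silencing 2.54 and sequence-specific regulators 2.03, and without a pseudocount 1.76, 2.57 and 2.27. Leaving out members given no cytoplasmic role gave 1.41 for helicases and 1.71 for exosome and quality control. It gave 0.69 for m6A readers and 2.53 for the zinc finger group. Scaling to the other reads gave 2.42 (FMRP family), 1.99 (helicases), 2.21 (initiation), 3.26 (poly(A)-binding proteins), 3.02 (deadenylation), 2.41 (decapping), 3.29 (nonsense-mediated decay), 2.28 (exosome and quality control), 3.23 (microRNA silencing), 3.08 (La-related), 2.25 (m6A readers), 2.77 (sequence-specific), 3.18 (granules) and 3.30 (zinc finger).

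Of the 10 highest members, 8 remained among the first 10 with each other pseudocount. Directions were fixed by the selection. No paired analysis was possible because there was only 1 library of each kind. Depth limited the 18 members under 100 input reads.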
